A study of Mus musculus with 24 samples.

Results

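The SoxC genes *Sox4*, *Sox11* and *Sox12* were followed in the olfactory epithelium (OE) of *WT* and *iRhom2-/-* mice. They were chosen by their symbols, 3 of 45706 genes in the table, as the family of Sox factors tied to neurogenesis. *Sox12* was chosen on its higher counts in *iRhom2-/-* mice of 8 and 10 weeks. The values of those mice are therefore given as a description with no test, and the same holds for values pooled over all mice. The mice of 5 and 30 weeks did not choose *Sox12*, and tests of the SoxC genes are given only for them.

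The study asked which genes differ in the OE of mice that lack iRhom2, a membrane protein that guides the protease ADAM17 to the cell surface. Bulk RNAseq was made from whole OE of 24 mice at 5, 8, 10 and 30 weeks of age, with 3 mice per age and genotype. The strain of all 24 mice was labelled mixed. The *iRhom2-/-* line is of 129Sv, C57BL/6 mixed background, and that of the *WT* mice is not given beyond the label. The *iRhom2-/-* mice carried the *Rhbdf2tm1b(KOMP)Wtsi* allele, which also serves as a LacZ reporter of iRhom2. The study describes these mice as lacking functional iRhom2 protein while exons 1 and 2 are still expressed. At 8 weeks the *WT* group had 2 mice labelled male and 1 labelled female, and the 3 *iRhom2-/-* mice were labelled male. At 10 weeks each genotype had 2 mice labelled male and 1 labelled female. All 12 mice of 5 and 30 weeks were labelled male. The count columns of these 12 mice give the genotype and a number from 7 to 12 but not the age, so they were handled as 6 *WT* and 6 *iRhom2-/-* libraries of 5 or 30 weeks. Any difference between these ages is part of the spread within each of these groups.

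SoxC proteins are transcription factors with an HMG box, a domain that binds and bends DNA. Sox4 and Sox11 are strong activators in neuronal precursors and young neurons, where they act with partners such as POU factors on genes of neuronal differentiation, and Sox12 is a weaker activator with overlapping sites of expression. In the OE, globose basal cells divide and give rise to immature olfactory sensory neurons (OSNs), which mature into the odorant-sensing neurons, so neurogenesis continues in the adult.

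*Rhbdf2*, the gene of iRhom2 (ENSMUSG00000020806, GRCm38 chr11:116598165-116627019, minus strand), was read first as a check of the genotype labels. Levels are given as CPM, counts per 1000000 counts of a library after TMM normalization, a scaling between libraries. In *WT* mice 1, 2 and 3 of 8 weeks *Rhbdf2* was at 20.7, 23.8 and 20.3 CPM, against 11.0, 13.4 and 12.8 CPM in the *iRhom2-/-* mice of that age. At 10 weeks the *WT* mice had 21.2, 20.8 and 21.4 CPM and the *iRhom2-/-* mice 9.58, 10.3 and 7.21 CPM. In the 5 or 30 weeks set the 6 *WT* libraries ranged from 19.4 through a median of 22.1 to 25.1 CPM, and the 6 *iRhom2-/-* libraries from 7.68 through 10.1 to 12.4 CPM. Every *iRhom2-/-* library was thus below every *WT* library, and no library went against its genotype label. In the 5 or 30 weeks set *Rhbdf2* fell by 1.15 on the log2 scale (SE 0.126, quasi-likelihood test of edgeR, Benjamini-Hochberg adjusted p = 0.000801 over all genes tested, lower in 6 of 6 libraries). The transcript that remained was not split into exons here.

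The libraries held 25333822 to 48660394 counts in all, with medians of 42278616 in *WT* and 44403516 in *iRhom2-/-* mice of 8 weeks. At 10 weeks the medians were 34384039 and 34380927, and in the 5 or 30 weeks set 29487210 and 27651070.5. A floor of 3 counts, the upper limit that a count of 0 allows, stood at 0.0621 to 0.113 CPM and covers counting error only. None of the 42 pairs of libraries within a group agreed within sampling noise, with a lowest chi-square per degree of freedom of 12.8. The markers of the tissue were abundant: *Omp*, the marker of mature OSNs, averaged 5834 CPM and *Cyp2g1*, of sustentacular cells, 3536 CPM.

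Some libraries of 8 and 10 weeks stood apart. *WT* mouse 3 of 8 weeks was labelled female, but had *Xist* at 0.22 CPM and the Y-linked *Ddx3y* at 48.6 CPM, whereas the females of 10 weeks had *Xist* at 203 and 287 CPM and *Ddx3y* at 0.0595 and 0.0932 CPM. In *iRhom2-/-* mouse 2 of 10 weeks the secretory gene *Bpifb9b* held 13.6% of all counts, and its TMM factor was 0.779. In *WT* mouse 1 of 8 weeks *Bpifb9b* held 5.53%, and 6 leukocyte markers summed to 160 CPM against 80.0 and 87.2 CPM in the other *WT* mice of that age. None of these libraries belonged to the 5 or 30 weeks set. The *Sox12* difference over 8 and 10 weeks was 0.59 on the log2 scale with all 12 mice and 0.56, 0.59 and 0.58 without these libraries in the order given. In the 5 or 30 weeks set *WT* library 8 stood apart, with ciliated and horizontal basal cell markers at 139 and 85.9 CPM against *WT* medians of 306 and 142 CPM. It also had the lowest *Sox12* and *Sox4* of the *WT* libraries, at 30.9 and 38.8 CPM. Without it the *Sox4* difference of that set was 0.14 in place of 0.21.

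The SoxC genes lie on separate chromosomes, each as a single exon on the minus strand. *Sox4* (ENSMUSG00000076431) spans GRCm38 chr13:28948919-28953713, *Sox11* (ENSMUSG00000063632) chr12:27334264-27342574 and *Sox12* (ENSMUSG00000051817) chr2:152393611-152398063. Their exons measure 4.79, 8.31 and 4.45 kb in that order. A lincRNA, *Gm26735*, overlaps *Sox4* on the opposite strand, and whether the counting used strand is not stated, so *Sox4* counts may include reads of that transcript. As paralogs the transcripts share sequence. The longest identical run was 48 bases between *Sox4* and *Sox11*, 33 bases between *Sox4* and *Sox12* and 20 bases between *Sox11* and *Sox12*. The best local alignments covered 250 columns at 89.2% identity, 251 columns at 86.1% and 260 columns at 83.5% for these pairs. Reads that lie within such a stretch could be split between the genes by the counting, so the counts of each gene carry that uncertainty.

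*Sox12*, the gene the choice rested on, was at 34.9, 35.2 and 32.4 CPM in *WT* mice 1, 2 and 3 of 8 weeks and at 50.4, 54.1 and 56.3 CPM in the *iRhom2-/-* mice. At 10 weeks *Sox12* was at 41.8, 39.3 and 36.4 CPM in *WT* and at 52.0, 56.2 and 60.0 CPM in *iRhom2-/-* mice. The groups did not overlap at either age, and the lowest *iRhom2-/-* mouse of 8 weeks was above the highest *WT* mouse of 10 weeks. The difference was 0.65 on the log2 scale at 8 weeks and 0.52 at 10 weeks. The *iRhom2-/-* means of both ages, 53.6 ± 2.96 and 56.1 ± 3.99 CPM (SD, n = 3 each), differed by less than their spread. Those of *WT* were 34.2 ± 1.51 and 39.2 ± 2.68 CPM (SD, n = 3 each). Summed cell type markers also separated the genotypes at 8 weeks: the 11 mature OSN markers were at 9861 to 12279 CPM in *WT* and 14331 to 18103 CPM in *iRhom2-/-* mice, and the 4 ensheathing glia markers at 202 to 267 and 304 to 334 CPM. At 10 weeks the mature OSN sums overlapped, at 14554 to 18330 CPM in *WT* and 13144 to 16595 CPM in *iRhom2-/-* mice. The glia sums were on the other side at that age, at 309 to 407 in *WT* and 201 to 289 CPM in *iRhom2-/-* mice. Higher in *iRhom2-/-* mice of 10 weeks without overlap were the 4 horizontal basal cell markers, at 119 to 128 CPM in *WT* and 154 to 171 CPM in *iRhom2-/-* mice, and the 9 globose basal cell and precursor markers, at 182 to 216 and 219 to 234 CPM. Lower without overlap were the 5 sustentacular markers, at 10182 to 10981 and 9628 to 9937 CPM. These 3 lists overlapped between genotypes at 8 weeks. *Krt5* made up most of the horizontal basal sum, at 70.5 to 73.2 CPM in *WT* and 87.2 to 97.7 CPM in *iRhom2-/-* mice of 10 weeks. Over both ages 2 of these 4 markers had a log2 difference above 0. With n = 3 per group sums can separate by chance, and how often they do was not counted, so nothing is read from these separations. *Sox12* was higher in *iRhom2-/-* mice at both ages, and the part of these cells in its values was not tested.

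*Sox4* showed no such separation at these ages. At 8 weeks it was at 68.2, 55.4 and 53.6 CPM in *WT* and at 54.0, 52.6 and 58.2 CPM in *iRhom2-/-* mice. At 10 weeks it was at 38.5, 40.3 and 37.2 CPM in *WT* and at 44.3, 35.7 and 39.7 CPM in *iRhom2-/-* mice. The genotypes overlapped at both ages, whereas all 6 mice of 8 weeks were above all 6 mice of 10 weeks. The mice of 8 and 10 weeks had different core reference numbers in the sample labels, which were handled here as batches. Age and core reference number therefore cannot be told apart in this shift. The share of all genes that separated in the same way was not counted, so nothing particular to *Sox4* is read from it. The *Sox4* difference between genotypes was -0.11 on the log2 scale at 8 weeks and 0.05 at 10 weeks.

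*Sox11* was at 133, 103 and 96.5 CPM in *WT* and at 107, 106 and 107 CPM in *iRhom2-/-* mice of 8 weeks. At 10 weeks it was at 107, 89.4 and 88.0 CPM in *WT* and at 131, 87.1 and 125 CPM in *iRhom2-/-* mice. *iRhom2-/-* mouse 2 of 10 weeks, with the low TMM factor, was below all 3 *WT* mice of its age while the other *iRhom2-/-* mice were above them, and at 8 weeks the groups overlapped. The *Sox11* difference was -0.06 on the log2 scale at 8 weeks and 0.27 at 10 weeks. Of the 3 SoxC genes, *Sox12* alone had every *iRhom2-/-* mouse above every *WT* mouse at both ages. That held for 205 of 19574 genes, or 1.05%, and since the choice used these mice nothing is read from it.

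*WT* libraries 7 to 12 of the 5 or 30 weeks set had *Sox12* at 38.3, 30.9, 37.2, 34.7, 34.7 and 32.7 CPM, with a median of 34.7 CPM. *iRhom2-/-* libraries 7 to 12 had 38.4, 40.4, 37.8, 47.8, 55.6 and 47.0 CPM, with a median of 43.7 CPM. All 6 *iRhom2-/-* libraries were above the *WT* mean of 34.8 ± 2.74 CPM (SD, n = 6), but the groups overlapped, since *iRhom2-/-* library 9 was below *WT* library 7. This overlap depended on the scaling: with CPM from library totals in place of TMM the lowest *iRhom2-/-* library was at 39.7 and the highest *WT* library at 38.8 CPM. Library 11 was the highest of the *iRhom2-/-* group, libraries 10 and 12 followed, and libraries 7, 8 and 9 lay within or just above the *WT* range. The difference was 0.35 on the log2 scale, a fold of 1.28 (SE 0.0965), and did not pass the threshold of 0.1 set for the whole table (edgeR quasi-likelihood test, adjusted p = 0.139 over 18481 genes, higher in 6 of 6 libraries). A two-sided exact permutation test of *Sox12* alone over all 924 assignments of the libraries gave a mean log2 difference of 0.35 (SE 0.101) and p = 0.00433, where the smallest p the design allows is 0.00217. The exact test takes no account of the other genes that could have been chosen. By DESeq2 *Sox12* passed (log2 difference 0.36, adjusted p = 0.0334, with a range of 0.0334 to 0.257 over all alternatives). P-values here set the genotype difference against the spread between these mice, which takes in any difference between 5 and 30 weeks.

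*Sox4* in the same set was at 38.8 CPM in the lowest, 49.2 at the median and 69.4 in the highest *WT* library. The *iRhom2-/-* libraries had 51.6, 63.3 and 69.2 CPM for the same points. The groups overlapped over most of their range, with *WT* libraries 7 and 9 at 69.4 and 63.3 CPM. The difference was 0.21 on the log2 scale (SE 0.133) and did not pass (edgeR, adjusted p = 0.499). The two-sided exact permutation test over the 12 libraries gave p = 0.13, with 5 of 6 *iRhom2-/-* libraries above the *WT* mean on the log2 scale.

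*Sox11* had the widest spread of the SoxC genes. *WT* libraries 7 to 12 were at 96.4, 107, 124, 44.1, 43.6 and 44.8 CPM, and *iRhom2-/-* libraries 7 to 12 at 51.7, 51.8, 37.8, 136, 132 and 125 CPM. Within each genotype 3 libraries were high and 3 low with a wide gap between them, and the groups overlapped. The ages of these columns are not known, and whether age takes part in the gap was not tested. The difference was 0.21 on the log2 scale (SE 0.387), within the spread between libraries (edgeR, adjusted p = 0.856). The two-sided exact permutation test gave p = 0.604, with 3 of 6 *iRhom2-/-* libraries above the *WT* mean.

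None of the 3 SoxC genes passed the adjusted threshold of 0.1 by edgeR in the 5 or 30 weeks set, where 1.07% of all genes tested did (198 of 18481). 1 of 3, *Sox12*, had an unadjusted p under 0.05, as did 14.2% of all genes (2616), and 1 of 3 passed by DESeq2, which called 4.96% of all genes (916). In 0 of 3 was every *iRhom2-/-* library above every *WT* library, against 1.11% of all genes. With library totals in place of TMM it was 1 of 3, *Sox12*, against 1.61% of all genes.

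**Figure D1:**
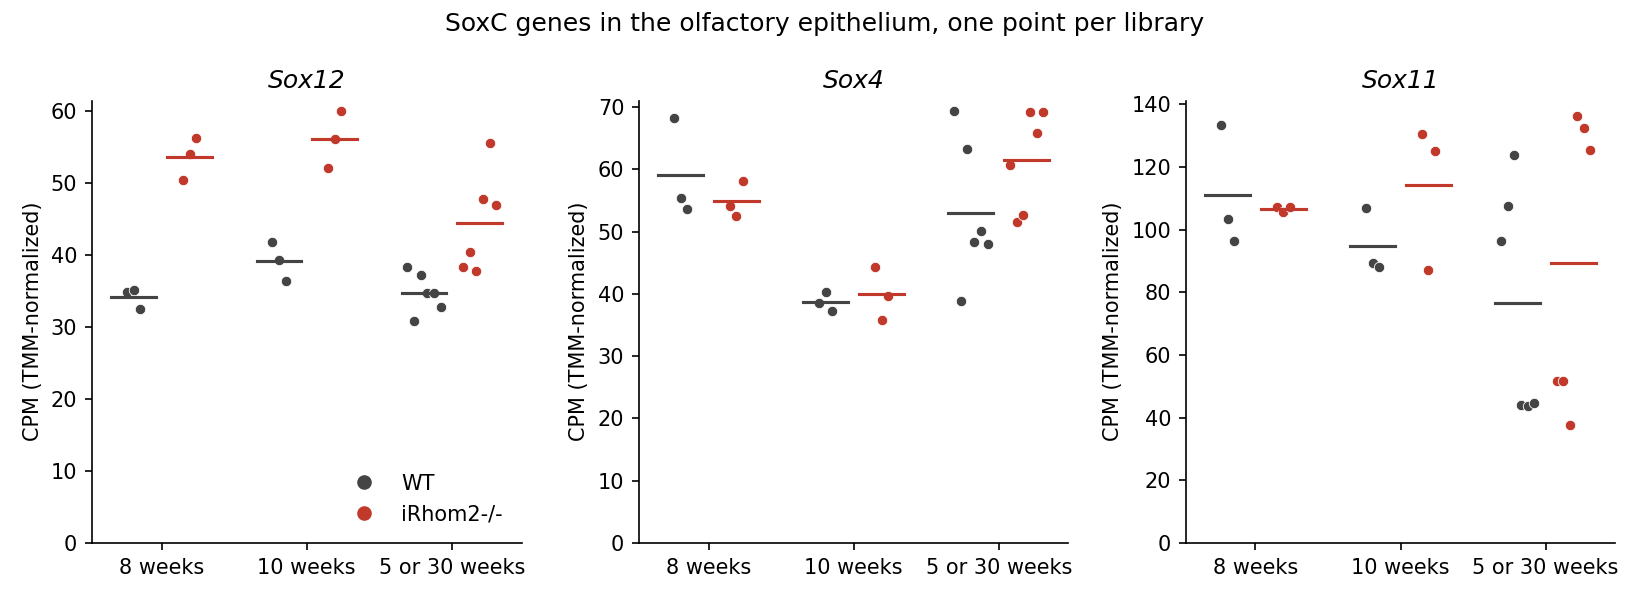
*Sox12*, *Sox4* and *Sox11* in each library, in CPM after TMM normalization on a linear axis from 0, by age set and genotype, with 1 point per library and a bar at each group mean. *Sox12* was higher without overlap in *iRhom2-/-* mice of 8 and 10 weeks, the mice it was chosen on, and overlapped *WT* in the 5 or 30 weeks set on this scaling, though not with library totals. *Sox11* ran from 37.8 to 136 CPM in that set after TMM normalization.

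Whether *Sox12* differed between genotypes by more than its relatives was tested with the log2 ratio of each pair within a library, which does not depend on scaling between libraries. In the 5 or 30 weeks set the ratio of *Sox12* to *Sox4* averaged -0.59 ± 0.19 in *WT* and -0.47 ± 0.15 in *iRhom2-/-* libraries (SD, n = 6 each). The genotypes differed by 0.11 (SE 0.1004, two-sided exact permutation p = 0.294, adjusted p = 0.883 over 3 pairs). The ratio of *Sox12* to *Sox11* differed by 0.17 (SE 0.388, exact p = 0.619, adjusted p = 0.909) and that of *Sox4* to *Sox11* by 0.06 (SE 0.391, exact p = 0.909, adjusted p = 0.909). No pair passed, so a larger genotype difference in *Sox12* than in its relatives was not shown in these mice. The SE of the 2 ratios to *Sox11* was wide enough to hide a difference as large as that of *Sox12* itself. As a description, the ratio of *Sox12* to *Sox4* averaged -0.78 in *WT* and -0.03 in *iRhom2-/-* mice of 8 weeks, and 0.02 and 0.49 at 10 weeks.

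Over all 24 mice, with the core reference number as a term, the log2 differences were 0.47 for *Sox12*, 0.09 for *Sox4* and 0.16 for *Sox11*. *Sox12* was above the *WT* mean of its own set in 12 of 12 *iRhom2-/-* libraries, *Sox4* in 6 and *Sox11* in 5, counted on the CPM scale, on which *Sox4* was above it in 4 of the 6 libraries of the 5 or 30 weeks set in place of 5 on the log2 scale. Since 12 of these mice chose *Sox12*, these values are a description and no p is given for them, although the SoxC genes were part of the fit across all genes.

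Levels were compared between the SoxC genes per exon length, as CPM per kb. In *WT* mice of 8 weeks the order was *Sox11* at 13.4 ± 2.36, *Sox4* at 12.3 ± 1.67 and *Sox12* at 7.67 ± 0.339 CPM per kb (SD, n = 3). *Sox11* and *Sox4* did not differ beyond their spread there, and *Sox12* was below both. In *iRhom2-/-* mice of 8 weeks *Sox11* was at 12.8 ± 0.115, *Sox12* at 12.0 ± 0.666 and *Sox4* at 11.5 ± 0.609 CPM per kb, and *Sox12* and *Sox4* did not differ beyond their spread. In *WT* mice of 10 weeks the order was *Sox11* at 11.4 ± 1.27, *Sox12* at 8.79 ± 0.601 and *Sox4* at 8.06 ± 0.329 CPM per kb, and the mice overlapped between *Sox12* and *Sox4*. In *iRhom2-/-* mice of 10 weeks it was *Sox11* at 13.8 ± 2.85, *Sox12* at 12.6 ± 0.895 and *Sox4* at 8.32 ± 0.893 CPM per kb, with *Sox11* and *Sox12* within their spread of each other. In the 5 or 30 weeks set the order was *Sox4* at 11.1 ± 2.34, *Sox11* at 9.22 ± 4.41 and *Sox12* at 7.81 ± 0.615 CPM per kb in *WT* (SD, n = 6). The *iRhom2-/-* libraries had 12.8 ± 1.66, 10.7 ± 5.60 and 9.99 ± 1.56 CPM per kb in the same order, and no neighbours in the order of either genotype were apart by more than the spread of *Sox11*. Of the 16 other Sox genes, 2 averaged more per length over 24 libraries than any group mean of a SoxC gene, *Sox2* at 36.1 and *Sox10* at 18.2 CPM per kb. *Sox13*, *Sox9* and *Sox21*, at 10.2, 8.92 and 7.74 CPM per kb, lay within the range of the SoxC genes, and the other 11 were below it.

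The other Sox genes, transcription factors with the same kind of DNA-binding domain, were counted as a list of 16. Of these 14 were tested in the 5 or 30 weeks set and 0 passed by edgeR or DESeq2, with 0 at an unadjusted p under 0.05. The shares of all genes in that set were 1.07%, 4.96% and 14.2% in the same order. 8 had a log2 difference above 0, with a median of 0.07 beside 0.00 over all genes tested. At 8 and 10 weeks 0 of 13 passed by either tool and 4 were above 0, with a median of -0.05. 2 had an unadjusted p under 0.05 there, beside 11.4% of all genes. The most abundant were *Sox2*, a factor of sustentacular and basal cells, at 74.3 CPM on average over 24 libraries, *Sox10*, known for glial cells, at 55.4 CPM, *Sox13* at 43.9 CPM and *Sox9*, known for gland cells, at 36.9 CPM. Their log2 differences in the 5 or 30 weeks set were 0.13, 0.00, 0.14 and -0.03. The list summed to 195 to 288 CPM in *WT* and 227 to 310 CPM in *iRhom2-/-* libraries of that set, with *Sox2* the most abundant gene. The sums overlapped at 8 weeks, at 248 to 278 and 250 to 262 CPM. At 10 weeks they did not, at 271 to 279 CPM in *WT* and 259 to 267 CPM in *iRhom2-/-* mice.

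Of the genes known as targets of SoxC factors, 5 of 5 were tested in the 5 or 30 weeks set and 0 passed by either tool, with 0 at an unadjusted p under 0.05. Of all genes in that set 1.07% passed by edgeR, 4.96% passed by DESeq2 and 14.2% had an unadjusted p under 0.05. The median log2 difference was 0.14, and 4 of 5 were above 0. *Tubb3*, a tubulin of neurons, averaged 326 CPM over all libraries and differed by 0.04 on the log2 scale (SE 0.151). *Dcx*, a microtubule protein of young neurons, averaged 115 CPM and differed by 0.38 (SE 0.183). *Map2*, another microtubule protein, was at 74.8 CPM with 0.16, and *Tead2*, a factor of the Hippo pathway, at 12.8 CPM with -0.06. The summed level of the list ran from 397 to 565 CPM in *WT* and from 404 to 631 CPM in *iRhom2-/-* libraries of that set, with *Tubb3* the most abundant. At 8 and 10 weeks 0 of 5 passed by either tool and 2 had an unadjusted p under 0.05, *Tubb3* with a log2 difference of 0.26 and *Map2* with -0.17, beside 11.4% of all genes. The target sums did not overlap at 8 weeks, at 504 to 569 CPM in *WT* and 580 to 667 CPM in *iRhom2-/-* mice, and overlapped at 10 weeks, at 555 to 608 and 539 to 658 CPM. The POU factors that act with SoxC proteins in other neuronal precursors were low, with *Pou3f3* at 0.775 CPM on average over 24 libraries, from 0.0311 to 3.35 CPM, and *Pou3f2* at 0.218 CPM, from 0 to 1.38 CPM. Only *Pou3f3* could be tested in that set, and it did not pass (log2 difference -0.30, edgeR adjusted p = 0.891). By DESeq2 and at an unadjusted p under 0.05 the count was 0 of 1 too.

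The wide spread of *Sox11* ran with markers of young neurons in the same libraries. The 12 markers of immature OSNs summed to 1731, 1832, 2037, 877, 923 and 950 CPM in *WT* libraries 7 to 12 and to 908, 971, 805, 2206, 1923 and 1873 CPM in *iRhom2-/-* libraries 7 to 12. *Stmn1*, a tubulin-binding protein, was the most abundant gene of the list. The libraries with high sums were the libraries with high *Sox11* in both genotypes. The 9 markers of globose basal cells and precursors followed the same order of high and low libraries, from 138 to 268 CPM in *WT* and from 141 to 288 CPM in *iRhom2-/-* libraries, with *Hes6* the most abundant. The 11 markers of mature OSNs went the other way, at 10334, 10749, 11707, 14851, 14011 and 15319 CPM in *WT* libraries 7 to 12 and at 15410, 15383, 14452, 12340, 10547 and 10188 CPM in *iRhom2-/-* libraries 7 to 12. In each genotype the libraries with high *Sox11* had the lower mature OSN sums. The part of these cell types in the *Sox11* values was not tested, and in bulk tissue fewer cells of a type and less RNA per cell cannot be told apart. *Sox12* was also higher in *iRhom2-/-* libraries 10, 11 and 12 than in 7, 8 and 9, but *WT* libraries 10 to 12 lay within the range of *WT* libraries 7 to 9.

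Neither list of precursor or young neuron markers had a gene past the threshold in the 5 or 30 weeks set by edgeR or DESeq2. These tools called 1.07% and 4.96% of all genes in that set, and 14.2% had an unadjusted p under 0.05. Of the immature OSN markers, 0 of 12 passed, with 0 at an unadjusted p under 0.05, 6 above 0 and a median of 0.05. The most abundant, *Stmn1* at 355, *Stmn2* at 230, *Dpysl3* at 220 and *Marcksl1* at 139 CPM on average over 24 libraries, differed by -0.12, -0.02, 0.23 and 0.20 on the log2 scale. Of the globose basal cell markers, 0 of 9 passed, with 0 at an unadjusted p under 0.05, 7 above 0 and a median of 0.09. *Hes6*, a repressor in neuronal precursors, was at 66.8 CPM with 0.00, and the dividing cell genes *Top2a* at 29.3 and *Mki67* at 28.7 CPM had log2 differences of -0.01 and 0.11. *Ezh2*, a histone methyltransferase, was at 27.3 CPM with 0.09. Whether *Sox12*, which did not pass by edgeR in this set either, differed more than these lists was not tested. At 8 and 10 weeks 1 of 12 immature OSN markers passed by edgeR, beside 0.582% of all genes: *Crmp1*, a protein of axon growth named after its values were seen, rose by 0.32 on the log2 scale (adjusted p = 0.0961). DESeq2 called 2 of 12 there, *Crmp1* and *Gap43*, beside 3.12% of all genes. Of the 12 markers 11 were above 0 at these ages, with a median of 0.12 and 3 at an unadjusted p under 0.05, which 11.4% of all genes had. Of the 9 globose basal cell markers 0 passed at these ages by either tool, with 0 at an unadjusted p under 0.05.

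Markers of the other cell types in the tissue were counted in the same way. In the 5 or 30 weeks set 0 of 11 mature OSN markers (median log2 difference 0.04), 0 of 4 horizontal basal cell markers (0.20), 0 of 5 sustentacular markers (-0.01) and 0 of 4 ciliated cell markers (-0.02) passed by edgeR or DESeq2. At an unadjusted p under 0.05 the counts were 1, 1, 0 and 0 in that order, and each such count stands beside 14.2% of all genes. Of 4 ensheathing glia markers 0 passed by edgeR, 2 had an unadjusted p under 0.05 and 1, *Fabp7*, was lower by DESeq2, with a median of -0.22. Of 6 leukocyte markers 0 passed by edgeR, 3 had an unadjusted p under 0.05 and 1, *Cd79a*, a B cell gene, was lower by DESeq2, with a median of -0.76 and all 6 below 0. DESeq2 called 4.96% of all genes in this set. The summed level of the leukocyte list ran from 67.7 through a median of 83.9 to 107 CPM in *WT* and from 53.9 through 68.8 to 86.9 CPM in *iRhom2-/-* libraries, with *Csf1r* the most abundant gene. Summed mature OSN markers had medians of 12859 CPM in *WT* and 13396 CPM in *iRhom2-/-* libraries, with *Omp* the most abundant. The summed horizontal basal cell markers had medians of 142 and 150 CPM with *Krt5* on top, the sustentacular markers 6604 and 6868 CPM with *Cyp2g1*, the ciliated cell markers 306 and 261 CPM with *Foxj1* and the glia markers 458 and 340 CPM with *Fabp7*. Their part in the SoxC values was not tested. At 8 and 10 weeks no marker of these cell types passed by edgeR, beside 0.582% of all genes. DESeq2 called 1, the ciliated cell gene *Tekt1*, which was higher, beside 3.12% of all genes. Of the 11 mature OSN markers 10 were above 0 at these ages, with a median of 0.15. At an unadjusted p under 0.05 there were 2 mature OSN markers, 1 ciliated cell marker and 0 of the other types, beside 11.4% of all genes. Over all 24 mice no marker of any list passed by edgeR, where 2.13% of all genes did, and by DESeq2 3 leukocyte genes, *Cd3e*, *Cd79a* and *Ptprc*, were lower, beside 4.09% of all genes called by that tool. At an unadjusted p under 0.05, which 12.5% of all genes had over all 24 mice, the counts were 2 of 14 other Sox genes, 0 of 5 targets, 0 of 2 POU factors, 1 of 12 immature OSN and 0 of 9 globose basal cell markers. For mature OSN, horizontal basal, sustentacular, ciliated, glia and leukocyte markers they were 2 of 11, 2 of 4, 0 of 5, 0 of 4, 1 of 4 and 3 of 6. Nothing particular to a list is read from these counts.

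The genes most like each SoxC gene were taken as those with the highest Pearson correlation of log2 CPM over 24 libraries, after centring within each core reference number, among 20130 other genes. For *Sox11* these were *Nhlh1*, a transcription factor of young neurons, at r = 0.980, *Rnf144a*, a ubiquitin ligase, at 0.973 and *Rcor2*, a corepressor, at 0.972. Without the 2 libraries farthest from the median they were 0.973, 0.964 and 0.963, and in the 12 mice of 8 and 10 weeks alone 0.852, 0.663 and 0.802. In the 12 libraries of 5 or 30 weeks they were 0.989, 0.994 and 0.989, where *Sox11* had its widest range, which raises r by itself. *Rnf144a* also starts within 1 Mb of *Sox11* on chromosome 12. For *Sox4* they were *Ptk7*, a receptor of cell polarity, at 0.848, *Kdm4a*, a histone demethylase, at 0.847 and *Uaca* at 0.845. Without the 2 farthest libraries they were 0.770, 0.850 and 0.740. In the 12 mice of 8 and 10 weeks alone they were 0.512, 0.725 and 0.425, and in the 12 libraries of 5 or 30 weeks 0.980, 0.901 and 0.936.

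For *Sox12* the most similar genes were of another kind, with fewer counts. They were the pseudogene *Eif3s6-ps2* (r = 0.917, 0.411 CPM on average), *Gm8276* (0.911, 1.91 CPM), *Gm14164* (0.897, 0.246 CPM), ENSMUSG00000061501, which has no symbol in the table (0.879, 0.317 CPM), and the odorant receptor gene *Olfr603* (0.870, 0.216 CPM). Without the 2 farthest libraries the 5 were at 0.909, 0.902, 0.899, 0.845 and 0.894. They were at 0.922, 0.961, 0.942, 0.903 and 0.899 in the mice of 8 and 10 weeks and at 0.911, 0.861, 0.838, 0.845 and 0.836 in the libraries of 5 or 30 weeks. *Sox12* was chosen on its difference between genotypes and the centring keeps that difference, so genes that differ between genotypes are favoured among these. Reads of a pseudogene can be split with its parent gene, so *Eif3s6-ps2* is uncertain. *Gm14164* had *WT* counts at the floor and did not pass the filter in the libraries of 5 or 30 weeks, so its r is uncertain too. Among the SoxC genes r was 0.554 for *Sox4* and *Sox11*, 0.391 for *Sox4* and *Sox12* and 0.382 for *Sox11* and *Sox12* over 24 libraries. These pooled values differ from those within the sets. In the 12 mice of 8 and 10 weeks they were 0.759, -0.132 and 0.264, and in the 12 libraries of 5 or 30 weeks 0.536, 0.770 and 0.552, in the same order. The libraries share tissue and depth range, and these correlations are a description.

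The genes that start within 1 Mb of each SoxC gene were examined for what the SoxC genes share with their surroundings. Around *Sox4* 3 of 13 genes could be tested and around *Sox11* 3 of 7. None of these 6 passed by edgeR or DESeq2 in the 5 or 30 weeks set or over all 24 mice, and 0 had an unadjusted p under 0.05. Around *Sox12* 43 genes of 85 were tested in the 5 or 30 weeks set, and 2, or 4.65%, passed the edgeR test, beside 1.07% of all genes. At an unadjusted p under 0.05 it was 5 of 43, a lower share than the 14.2% of all genes. The median log2 difference of these neighbours was -0.02. Over all 24 mice 5 of 48, or 10.4%, passed, beside 2.13% of all genes, with a median of 0.00, and 13 had an unadjusted p under 0.05, beside 12.5% of all genes. At 8 and 10 weeks 3 of 47 passed, beside 0.582% of all genes, and 11 had an unadjusted p under 0.05, beside 11.4%. The 3 were *Gm14164*, *Rps15a-ps7* and *Trib3*. *Gm14164*, with *WT* counts at the floor, is in the counts over all 24 mice and at 8 and 10 weeks, so nothing is read from these shares. At 8 and 10 weeks *Trib3* lost its call in 11 and *Rps15a-ps7* in 10 of 12 fits without 1 mouse. All 6 genes that passed in the 5 or 30 weeks set or over all 24 mice were higher in *iRhom2-/-* mice. *Gm14164* among them could be called only as higher, so nothing is read from the shared direction.

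*Rps15a-ps7*, a pseudogene of a ribosomal protein gene, ran from 0.802 through 1.18 to 1.89 CPM in the 6 *WT* and from 7.96 through 12.5 to 17.1 CPM in the 6 *iRhom2-/-* libraries of 5 or 30 weeks, without overlap. It rose by 3.35 on the log2 scale (edgeR adjusted p = 5.62e-05, 6 of 6 libraries), but its reads can be split with the parent gene and its level is uncertain. At 8 weeks the genotypes did not overlap either, at 0.341 to 0.749 CPM in *WT* and 7.01 to 9.58 CPM in *iRhom2-/-* mice. At 10 weeks the genotypes overlapped, with *Rps15a-ps7* at 4.59, 3.47 and 5.83 CPM in *WT* and at 4.82, 6.13 and 38.4 CPM in *iRhom2-/-* mice, and its call at 8 and 10 weeks was lost in 10 of 12 fits without 1 mouse. *Asxl1*, a chromatin factor, ran from 35.2 through 38.1 to 42.3 CPM in *WT* and from 42.3 through 47.3 to 52.4 CPM in *iRhom2-/-* libraries. It rose by 0.28 (edgeR adjusted p = 0.0806), a call that was lost in 8 of 12 fits without 1 library. At 8 and 10 weeks its log2 difference was -0.03, with means of 57.6 CPM in *WT* and 51.9 CPM in *iRhom2-/-* mice of 8 weeks and 42.2 and 44.8 CPM at 10 weeks. *Trib3*, a pseudokinase of the stress response, ran from 16.2 through 19.2 to 24.04 CPM in *WT* and from 23.1 through 27.9 to 36.7 CPM in *iRhom2-/-* libraries. *Trib3* missed the threshold in that set (log2 difference 0.54, edgeR adjusted p = 0.104) and rose by 0.65 over all 24 mice (adjusted p = 0.00192). In that set *Trib3* passed under 6 of 9 other settings and in 1 of 12 fits without 1 library. Its call over all 24 mice was lost under 1 of 9 other settings. By DESeq2 4 neighbours passed in the 5 or 30 weeks set, *Asxl1*, *Kif3b*, *Rps15a-ps7* and *Trib3*, all higher, which is 4 of 43 beside 4.96% of all genes. Over all 24 mice DESeq2 called 6 of 48, beside 4.09% of all genes, of which *Angpt4*, which edgeR did not call, was lower.

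*Gm14164*, a gene 18.3 kb from *Sox12* on the plus strand and also among the genes most like it, had 0 to 3 counts in each of the 12 *WT* libraries. The *iRhom2-/-* libraries had 15 to 37 counts at 8 weeks, 8 to 24 counts at 10 weeks and 1 to 30 counts in the 5 or 30 weeks set. With such counts it passed the filter over all 24 mice and at 8 and 10 weeks only through the *iRhom2-/-* libraries. It is 1 of the 5 of 48 genes counted over all 24 mice and 1 of the 3 of 47 at 8 and 10 weeks. Neither a fold nor a p is given for *Gm14164* against *WT* counts at the floor. It did not pass the filter in the 5 or 30 weeks set and was not tested there. The motor protein gene *Kif3b* rose by 0.16 over all 24 mice (edgeR adjusted p = 0.0575) and the phosphatase gene *Dusp15* by 0.49 (adjusted p = 0.0846). *Kif3b* lost its call in 8 and *Dusp15* in 18 of 24 fits without 1 library.

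The stretch of chromosome 2 around *Sox12* was then set beside the rest of the chromosome, a range chosen after the values were seen. Of the genes starting from 150 to 170 Mb, leaving out *Sox12*, 24 of 291 passed by edgeR over all 24 mice, or 8.25%, against 24 of 1458, or 1.65%, on the rest of chromosome 2. *Gm14164*, with *WT* counts at the floor, is 1 of the 24 in this range, and agouti, with few *WT* counts, is another. The 5 or 30 weeks set had 6 of 269, or 2.23%, against 7 of 1334, or 0.525%, and at 8 and 10 weeks 10 of 287, or 3.48%, against 9 of 1413, or 0.637%. Over all 24 mice 11 of the 24 genes were higher and 13 lower in *iRhom2-/-* mice, in the 5 or 30 weeks set 5 were higher and 1 lower, and at 8 and 10 weeks 5 were higher and 5 lower. The range was not alone in such shares. From 180 to 190 Mb of chromosome 2 the share was 5.08% over all 24 mice, 3.64% in the 5 or 30 weeks set and 3.57% at 8 and 10 weeks, from 2 or 3 genes each. Over the whole of chromosome 15, which holds no SoxC gene, it was 6.21% (45 of 725), 2.20% and 2.68% in the same order. *Rhbdf2* itself lies on chromosome 11. The coat colour gene agouti, also singled out after its values were seen, lies in this range and had 0 to 16 counts in *WT* mice of 8 and 10 weeks and 13 to 52 in *iRhom2-/-* mice of these ages. It had 2 to 12 counts in *WT* and 4 to 35 in *iRhom2-/-* libraries of the 5 or 30 weeks set. Agouti was called by edgeR over all 24 mice but not in the 5 or 30 weeks set. Its *WT* counts were few and went down to 0, so neither a fold nor a p is given and nothing is read from the call. *Ahcy*, a neighbour of agouti, fell by 1.58 on the log2 scale over all 24 mice (edgeR adjusted p = 0.0139). In the 5 or 30 weeks set the *Ahcy* difference was -0.96 and did not pass (adjusted p = 0.275), and it was -2.29 at 8 and 10 weeks. Whether these sets differed was not tested. As background, C57BL/6 and agouti 129 strains carry different alleles of this gene, and the strain of the mice was labelled mixed. Strain alleles were not read here, and their part in the *Sox12* values was not tested.

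**Figure D2:**
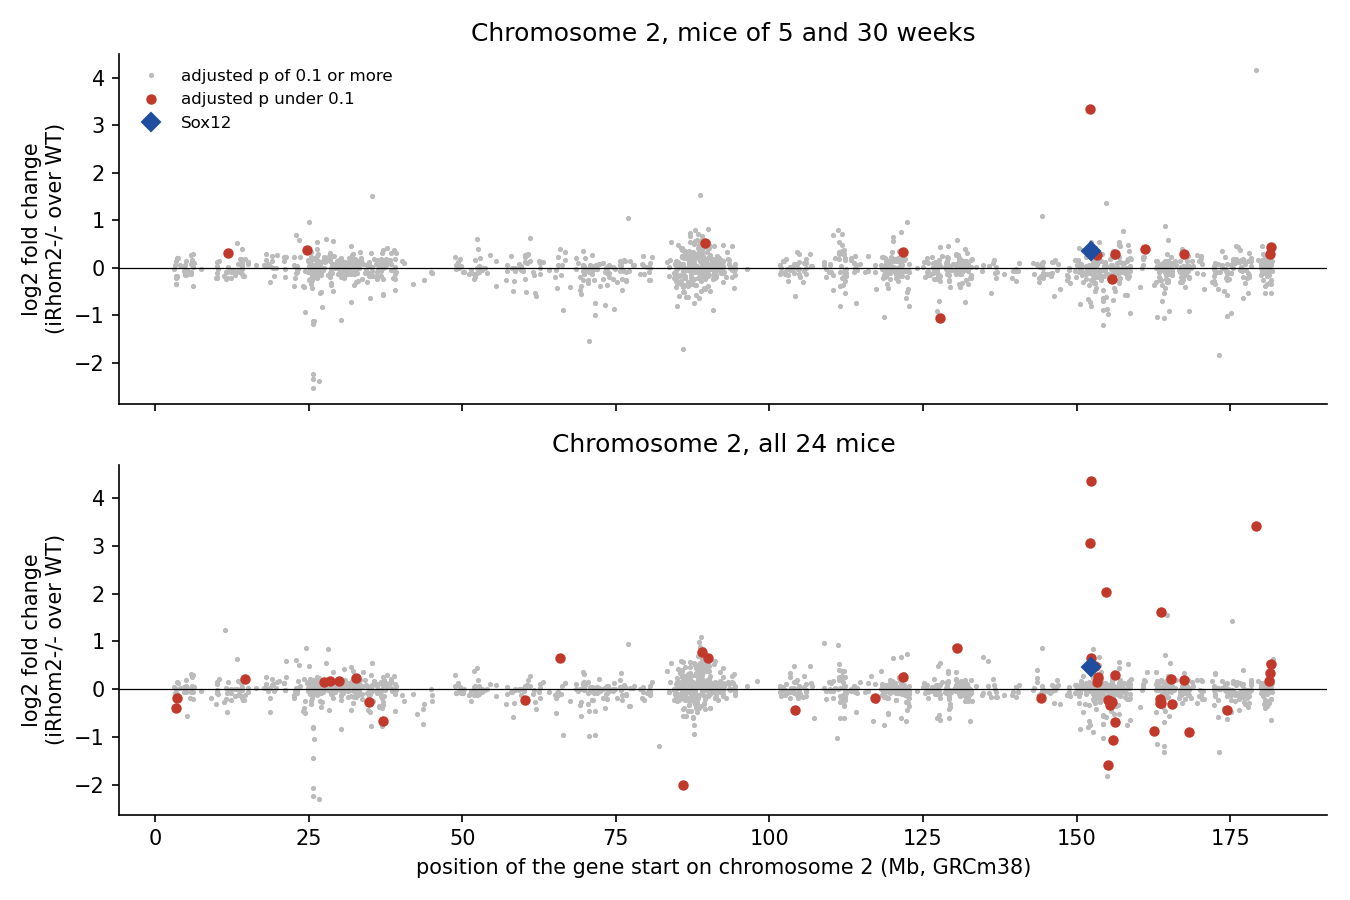
Log2 differences between *iRhom2-/-* and *WT* mice for genes along chromosome 2, by the start of each gene in Mb, in the 5 or 30 weeks set and over all 24 mice. Red points passed an adjusted p of 0.1 and the blue diamond is *Sox12*, whose value over all 24 mice is a description. From 150 to 170 Mb, a range chosen after the values were seen, 24 of 291 genes passed over all 24 mice. That is 8.25%, against 1.65% on the rest of chromosome 2. *Gm14164* and agouti are among the 24, and with few *WT* counts their plotted differences are imprecise and not read.

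The promoters of the SoxC genes were read for sequence features that the choice did not use, since the 3 genes differed in how their levels varied. All 3 genes matched the RefSeq promoters of GRCm38.p6, each given here as the 250 bases before the RefSeq start on the minus strand, from 5′ to 3′. They are chr13:28953700-28953949 for *Sox4*, chr12:27342719-27342968 for *Sox11* and chr2:152398047-152398296 for *Sox12*. Capitals mark matches on either strand to the TATA box TATAAA, the CCAAT box CCAAT, the GC box GGGCGG and the octamer ATGCAAAT, a motif bound by POU factors that was chosen after the data were seen.
Sox4: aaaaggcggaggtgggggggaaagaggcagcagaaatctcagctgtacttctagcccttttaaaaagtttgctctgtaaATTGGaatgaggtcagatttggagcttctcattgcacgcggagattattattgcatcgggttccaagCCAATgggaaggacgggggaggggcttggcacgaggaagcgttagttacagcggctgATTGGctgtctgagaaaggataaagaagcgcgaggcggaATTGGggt
Sox11: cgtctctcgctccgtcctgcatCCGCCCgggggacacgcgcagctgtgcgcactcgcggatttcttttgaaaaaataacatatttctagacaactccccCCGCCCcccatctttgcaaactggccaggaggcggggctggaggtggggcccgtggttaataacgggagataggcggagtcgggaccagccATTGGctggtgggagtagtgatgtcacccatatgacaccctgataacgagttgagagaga
Sox12: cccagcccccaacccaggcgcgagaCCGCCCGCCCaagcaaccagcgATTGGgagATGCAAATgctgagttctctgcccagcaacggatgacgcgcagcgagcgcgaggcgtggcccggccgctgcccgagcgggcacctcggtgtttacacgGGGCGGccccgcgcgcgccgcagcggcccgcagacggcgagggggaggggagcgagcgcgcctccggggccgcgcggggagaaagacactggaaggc
The GC content was 50.8% in *Sox4*, 58.0% in *Sox11* and 74.4% in *Sox12*, where 95.4% of 32851 promoters had a lower value and the median was 52.4%. No promoter of the 3 held the TATA box, which 12.4% of all promoters hold. The CCAAT box was found 4 times in *Sox4*, 1 time in *Sox11* and 1 time in *Sox12*, and 33.8% of all promoters hold it. The GC box was found 0, 2 and 3 times in that order, with 2 overlapping matches in *Sox12*, and 32.7% of all promoters hold it. The octamer was found 1 time, in *Sox12*, and 1.6% of all promoters hold it. These matches describe the letters of the windows and say nothing of binding.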

How the data were processed

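The authors prepared poly A selected, strand-marking libraries from whole OE and used the nf-core pipeline, with STAR alignment to GRCm38 and RSEM for estimated counts of each gene. The deposited table holds these estimated counts as whole numbers for 45706 genes and 24 libraries, and 3926 genes have no symbol. How the estimates were rounded and the strand setting are not stated. It also holds the log2 fold change, statistic, p-value and FDR of the authors' own comparison of genotypes. These are the authors' deposited log2, ratio statistic and p-value columns and were not used. No per-sample column was left unused (0).

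The fitting procedure was first checked on simulated counts with known changes. The counts were fitted with edgeR 4.0.16 in R 4.3.3 (filterByExpr with the model, TMM, glmQLFit and glmQLFTest) with Benjamini-Hochberg adjustment over all genes tested and a threshold of 0.1, with 0.05 as another. Mice of 8 and 10 weeks were fitted with age and all 24 mice with the core reference number of the sample labels as a term. The libraries of 5 or 30 weeks had no covariate. Single genes and ratios were tested with an exact permutation test over mice. Members and gene lists were chosen with earlier results of these data known, and the SoxC genes were matched by the symbol column.

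Genes named are *Rhbdf2*, the SoxC genes, genes of the lists past an adjusted p of 0.1 in the mice of 5 and 30 weeks or all 24 mice, up to 4 of the most abundant genes of 5 lists, genes within 1 Mb of a SoxC gene past that threshold, and the 5 genes most like *Sox12* and 3 most like *Sox4* and *Sox11*. Agouti and *Ahcy*, the range of chromosome 2 and the octamer were chosen after the data were seen. Likeness used log2 of CPM plus 0.1.

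Alternatives were DESeq2 1.42.0, edgeR's likelihood ratio test, RLE scaling, library totals, no filter on low counts, at least 10 counts in every library, each mouse left out in turn, a fit of all 6 groups, the replicate number as a block, age or core reference number left out, male-labelled mice only and an offset of 2 CPM for the ratios. The filter by group in place of the model was chosen after seeing the data. Gene positions came from GENCODE M21 on GRCm38 and promoters from RefSeq. Biopython 1.88 aligned the transcripts and matplotlib 3.10.9 drew the plots in Python 3.11.15.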

Additional observations from a re-analysis of the deposited data

Results flagged for a closer look

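The library totals of the 5 or 30 weeks set had a value far from the others in each genotype. Among *WT* libraries, library 9 held 37541863 counts, and its gap to the nearest other library was 0.674 of the range of the group. Among *iRhom2-/-* libraries, library 12 held 38296560 counts, with a gap of 0.733 of the range. In 10 groups of values examined, 2 stood out in this way, where chance gives about 1 in 20. *Sox12* was at 37.2 CPM in *WT* library 9 and at 47.0 CPM in *iRhom2-/-* library 12, both within the range of their groups. Its log2 difference was 0.37 without the former and 0.34 without the latter, against 0.35 with all 12 libraries.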

How the results depend on the processing

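The *Sox12* difference in the 5 or 30 weeks set (log2 difference 0.35, adjusted p = 0.139) was on the other side of the threshold under 4 of 9 other settings: DESeq2 (0.36, adjusted p = 0.0334), edgeR's likelihood ratio test (0.35, adjusted p = 0.0893), library totals (0.39, adjusted p = 0.0828) and the fit of all 6 groups (0.34, adjusted p = 0.0834). Leaving out each library gave 0.28, without *iRhom2-/-* library 11 (adjusted p = 0.257), to 0.40, without *iRhom2-/-* library 9, the only such fit that passed (adjusted p = 0.0965). Adjusted p over all settings ran from 0.0334 to 0.257, and the cause of the changes was not tested. With 1 library left out, *Sox4* ran from 0.14 to 0.31 and *Sox11* from 0.05 to 0.40, and neither passed under any setting. With 1 mouse left out over 8 and 10 weeks *Sox12* ran from 0.56 to 0.62, *Sox4* from -0.07 to 0.03 and *Sox11* from 0.04 to 0.19. In the male-labelled mice of these ages they were at 0.52, -0.08 and -0.01, so the small *Sox11* difference changed sign there. Over all 24 mice they ran from 0.44 to 0.50, 0.05 to 0.13 and 0.08 to 0.25. The exact test of *Sox12* gave 0.28 to 0.39 with 1 library left out (exact p = 0.00217 to 0.0152) and 0.38 with library totals. That of *Sox4* gave 0.15 to 0.31 (exact p = 0.0411 to 0.279) and that of *Sox11* 0.02 to 0.39 (exact p = 0.368 to 0.968).

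With 1 library left out, the ratio of *Sox12* to *Sox4* differed by 0.06 to 0.17, of *Sox12* to *Sox11* by 0.00 to 0.31 and of *Sox4* to *Sox11* by -0.15 to 0.19. The last changed sign in 5 of 12 fits, with -0.15 and -0.05 without *WT* libraries 8 and 9 and -0.06, -0.01 and -0.11 without *iRhom2-/-* libraries 7, 8 and 9. *Asxl1* at 8 and 10 weeks was at -0.03 and changed sign in 1 of 12 such fits, to 0.015 without *WT* mouse 1 of 8 weeks, with a range of -0.075 to 0.015.

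The 198 genes called in the 5 or 30 weeks set were 916 by DESeq2, 344 with library totals, 119 with no filter and 51 at 0.05. Library totals called 79.9% of genes higher against 60.6%, and moved the median of all genes by 0.03. With 1 library left out the count ran from 52, without *iRhom2-/-* library 11, to 241. The 114 genes at 8 and 10 weeks were 610 by DESeq2, 280 by the likelihood ratio test, 32 with library totals, 35 at 0.05, 7 with age left out and 14 in male-labelled mice, and 25 to 134 with 1 mouse left out. The 428 genes over all 24 mice were 824 by DESeq2, 247 at 0.05 and 96 with the core reference number left out, and 297 to 720 with 1 mouse left out, the highest without *iRhom2-/-* mouse 2 of 10 weeks. The filter by group, chosen after seeing the data, changed no call.

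With the replicate number within age as a block, 41 genes were called at 8 and 10 weeks against 114. Mice with the same number shared a number only: of 6 pairs 3 correlated above 0.1 (r from -0.00 to 0.25), and 3 correlated best with their own number. The columns of the 5 or 30 weeks set carry no pairing number.

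Limits: the ages of 12 columns are unknown, the mice of 8 weeks, of 10 weeks and of the 5 or 30 weeks set had separate core reference numbers, 6 libraries per genotype leave wide intervals for *Sox11*, and the depth makes values of a few counts, such as those of *Gm14164*, imprecise.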
